A study of Mus musculus with 32 samples.

Results

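The 10 genes described here, Ido1, Ido2, Il4i1, Aldh1a2, Ahr, Itgb8, Tgfb1, Il10, Mertk and Axl, are linked in the literature to tolerance induced by dendritic cells (DC). They are 10 of the 16285 protein-coding genes that held an open-chromatin region in the peak lists. A region was assigned to a gene where it lay inside the gene body or, outside every gene, where that gene was the nearest within 50 kb in mouse build mm10. This gave 69 of the 90465 regions of the series, between 1 region (Il4i1) and 19 regions (Ahr) a gene. Assignment by distance leaves unknown which gene, if any, a region regulates.

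Open chromatin was profiled by Omni-ATAC-seq, in which a transposase cuts accessible DNA, in DC subsets sorted from mouse skin-draining lymph nodes. The floxed cohort has 28 libraries of 5 subsets: migratory migDC1, migDC2 and DN migDC, and resident cDC1 and cDC2. Each subset came from CD11cCREpos/IFNgr1flfl mice (Cre-positive) and from CD11cCREneg/IFNgr1flfl mice (Cre-negative), with 3 libraries of each genotype, or 2 for migDC1. A second set holds migDC2 from germline IFNgr1-/- mice and from WT mice, with 2 libraries each. All 28 libraries of the floxed cohort carry floxed Ifngr1, the gene of the interferon-gamma receptor's ligand-binding chain, and the Cre is driven by the CD11c promoter, so that deletion is aimed at CD11c-expressing cells rather than at 1 DC subset. The labels give neither age nor sex and do not say that libraries of a group came from separate animals, so p-values measure the spread between these libraries, which may be technical.

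Dendritic cells carry tissue antigen to the lymph node and can either prime T cells or render them tolerant. IDO1 and IDO2 break down tryptophan to kynurenines, IL4I1 oxidises aromatic amino acids, and products of both routes can activate the aryl hydrocarbon receptor encoded by Ahr. ALDH1A2 (RALDH2) makes retinoic acid, integrin alpha-v beta-8 (Itgb8) releases active TGF-beta from its latent complex, and together these favour regulatory T cells. IL-10 dampens antigen presentation and inflammatory cytokines, and the TAM receptor kinases MERTK and AXL recognise apoptotic cells and restrain inflammatory signalling.

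Sequences of the start sites help to place these regions. RefSeq (GRCm38.p6) promoter windows, from 250 bases before to 50 bases after the start, were matched for 6 of the 10 genes, and 4 are printed because their peaks differed most in kind. Il4i1 (chr7:44836038-44836337, plus strand) lies under the widest region of the set, Aldh1a2 (chr9:71215539-71215838, plus strand) and Mertk (chr2:128698665-128698964, plus strand) were reached by a peak in only some libraries, and Axl (chr7:25788684-25788983, minus strand) was reached in none. Capitals mark matches to the motifs named next.
Il4i1: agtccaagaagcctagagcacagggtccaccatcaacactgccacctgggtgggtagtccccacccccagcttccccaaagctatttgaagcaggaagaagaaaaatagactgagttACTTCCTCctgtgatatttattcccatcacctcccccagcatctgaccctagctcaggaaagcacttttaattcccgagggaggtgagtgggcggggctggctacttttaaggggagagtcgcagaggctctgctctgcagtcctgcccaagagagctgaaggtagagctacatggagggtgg
Aldh1a2: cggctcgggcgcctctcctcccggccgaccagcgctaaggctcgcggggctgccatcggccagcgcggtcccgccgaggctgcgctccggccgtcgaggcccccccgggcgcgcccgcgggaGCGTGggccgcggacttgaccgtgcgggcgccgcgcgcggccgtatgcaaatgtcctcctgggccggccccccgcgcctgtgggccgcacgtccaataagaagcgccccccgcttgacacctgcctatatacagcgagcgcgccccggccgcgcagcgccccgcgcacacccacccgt
Mertk: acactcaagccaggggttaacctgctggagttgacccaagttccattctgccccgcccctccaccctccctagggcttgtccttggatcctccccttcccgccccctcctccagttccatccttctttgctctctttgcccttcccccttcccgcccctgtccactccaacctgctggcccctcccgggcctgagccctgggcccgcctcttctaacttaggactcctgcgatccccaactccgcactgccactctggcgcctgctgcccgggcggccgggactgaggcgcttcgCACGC
Axl: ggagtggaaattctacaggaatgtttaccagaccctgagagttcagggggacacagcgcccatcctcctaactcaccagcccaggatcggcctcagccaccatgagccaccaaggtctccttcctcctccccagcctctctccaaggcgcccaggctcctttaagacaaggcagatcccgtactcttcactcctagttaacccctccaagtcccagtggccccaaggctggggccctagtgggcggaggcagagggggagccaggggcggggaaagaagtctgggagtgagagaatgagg

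The motifs, searched on both strands, were GAAANNGAA (interferon-stimulated response element-like), TGANTCA (AP-1), GCGTG (the aryl hydrocarbon receptor core), GGGNNTTCC (NF-kB-like), TGTGGTT (RUNX), GAGGAAGT (PU.1) and AGGTCA (nuclear receptor half-site). The aryl hydrocarbon receptor core stood at -128 in Aldh1a2, and on the opposite strand at -118 in Tgfb1 and at 46 in Mertk, against a share of 32.6% of 32544 promoters of the same length. Il4i1 held the PU.1 letters at -133 on the opposite strand, which 3.11% of promoters hold. The interferon-stimulated response element-like letters were found in 0 of the 6 windows, against 8.53% of promoters, and Itgb8 and Axl held none of these motifs. The other shares were 7.79% for AP-1, 5.85% for NF-kB, 5.29% for RUNX and 16.2% for the half-site. These are letter matches in a short window and say nothing about binding. A peak reached into the Tgfb1 window in 16 of 16 migratory and 12 of 12 resident libraries, the Itgb8 and Il4i1 windows in 16 and 11, the Aldh1a2 window in 13 and 8, the Mertk window in 13 and 5, and the Axl window in 0 and 0.

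The peak lists held 44991 to 74975 peaks in migratory libraries (median 60739.5), 38455 to 69544 in resident libraries (median 55761.5) and 32649 to 42446 in the germline set. No read counts were used, so the depth behind a call is unknown, and a region without a call may be closed or may lie below the authors' threshold. Longer lists hold more weak peaks. Libraries of the same group shared regions with a Jaccard index of 0.678 to 0.893, against 0.382 to 0.906 over all pairs. The highest value was thus between libraries of different groups. The labels passed a marker check: regions of 6 migratory DC markers (Ccr7 and Fscn1 among them) summed to 2801 to 3609 open bp per Mb of open sequence in migratory libraries and to 988.6 to 1575 in resident libraries. The 6 cDC1 markers summed to 1299 to 1488 in migDC1, against 848.2 to 944.2 in migDC2, and to 775 to 920.4 in cDC2, against 1064 to 1286 in cDC1. Peaks at Ifngr1 gave no sign of the deletion. By the exact test below none of the 16 regions of Ifngr1 was called differently in Cre-positive and Cre-negative libraries. Of these regions 3 were called in all 32 libraries. Whether the gene was deleted in these cells is thus not known from the peaks.

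Among the 69 regions, migratory libraries held calls in 55.1% to 72.5% (median 63.8%), against 27.5% to 63.8% in resident libraries (median 47.1%). Over all regions of the series the shares were 45.2% to 73.8% (median 62.2%) in migratory libraries and 39.9% to 71.4% (median 58.45%) in resident libraries. The migratory and resident ranges overlap, as they do over all regions of the series, and 15 of the 69 were called in all 28 floxed libraries (21.7%, against 25.9% of all regions). An exact conditional test, stratified by genotype, two-sided and Benjamini-Hochberg adjusted over all 61445 regions tested, could be run on 50 of the 69. Migratory libraries had calls more often in 17 of these 50 (34%), against 25% of all tested regions, and less often in 8 (16%), against 15.1% of all tested regions. All 8 regions called less often belong to Ahr, and the 17 called more often are spread over Ido2, Aldh1a2, Itgb8, Mertk, Axl and Il10. The other 19 regions were called in, or missing from, too few libraries to be tested.

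**Figure D1:**
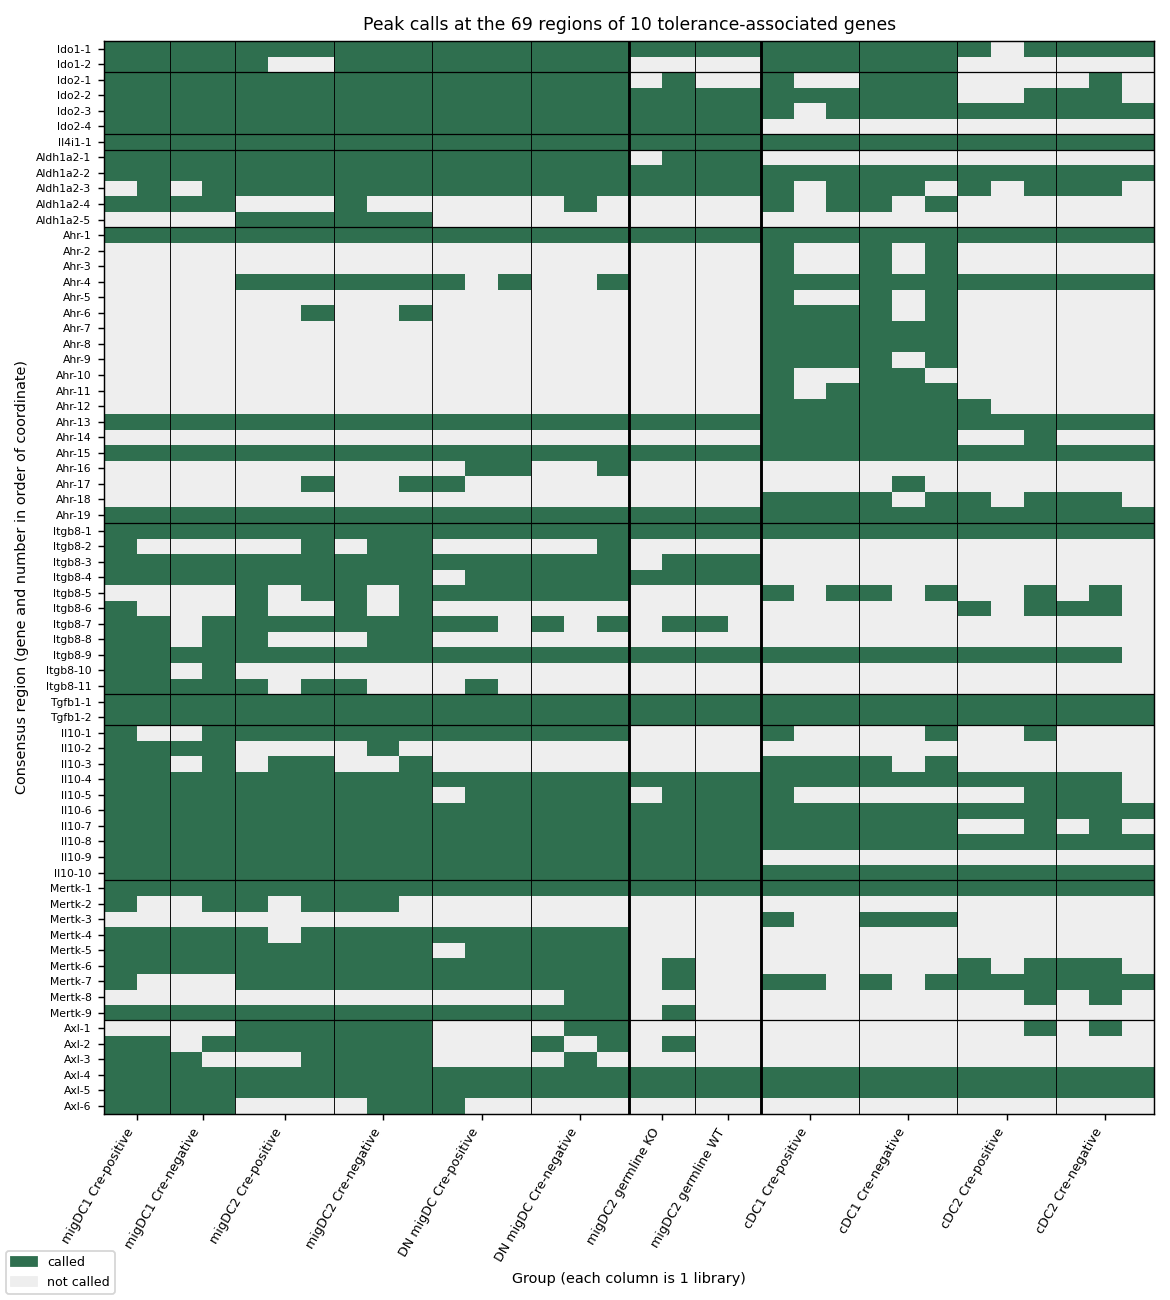
Calls of the 69 regions (down, grouped by gene, in order of coordinate) in the 32 libraries (across, from migratory subsets over the germline set, KO before WT, to resident subsets, Cre-positive left of Cre-negative); a green cell is a call. Migratory libraries had calls more often in 17 regions and less often in 8, all of Ahr.

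For each gene the bases under peaks in its regions were summed per Mb of open sequence of the library, called openness below, and compared by limma on log2(openness + 1) over 16285 genes, with Benjamini-Hochberg adjustment. Of the 10 genes, 7 were higher in migratory than in resident libraries, against 26.1% of all genes, and 2 (Ahr and Tgfb1) were lower, against 35.4% of all genes. Ido1 did not pass. The median difference of the 10 genes was 0.55 on the log2 scale, against -0.08 over all genes. In bulk libraries, fewer cells with an open region and less opening per cell cannot be told apart. All resident libraries carry plain numbered titles and most migratory ones lettered titles, a form that may stand for a separate round of work. Only 4 migratory libraries, of migDC2 and DN migDC, carry plain titles. Within plain titles 3 of the 10 genes were higher (Ido2, Il4i1 and Itgb8), against 17.7% of all genes tested there, and Ahr was lower, against 20.9%. Of the 36 member regions tested there 10 were called more often and 0 less often, against 21.3% and 2.36% of all tested regions.

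**Figure D2:**
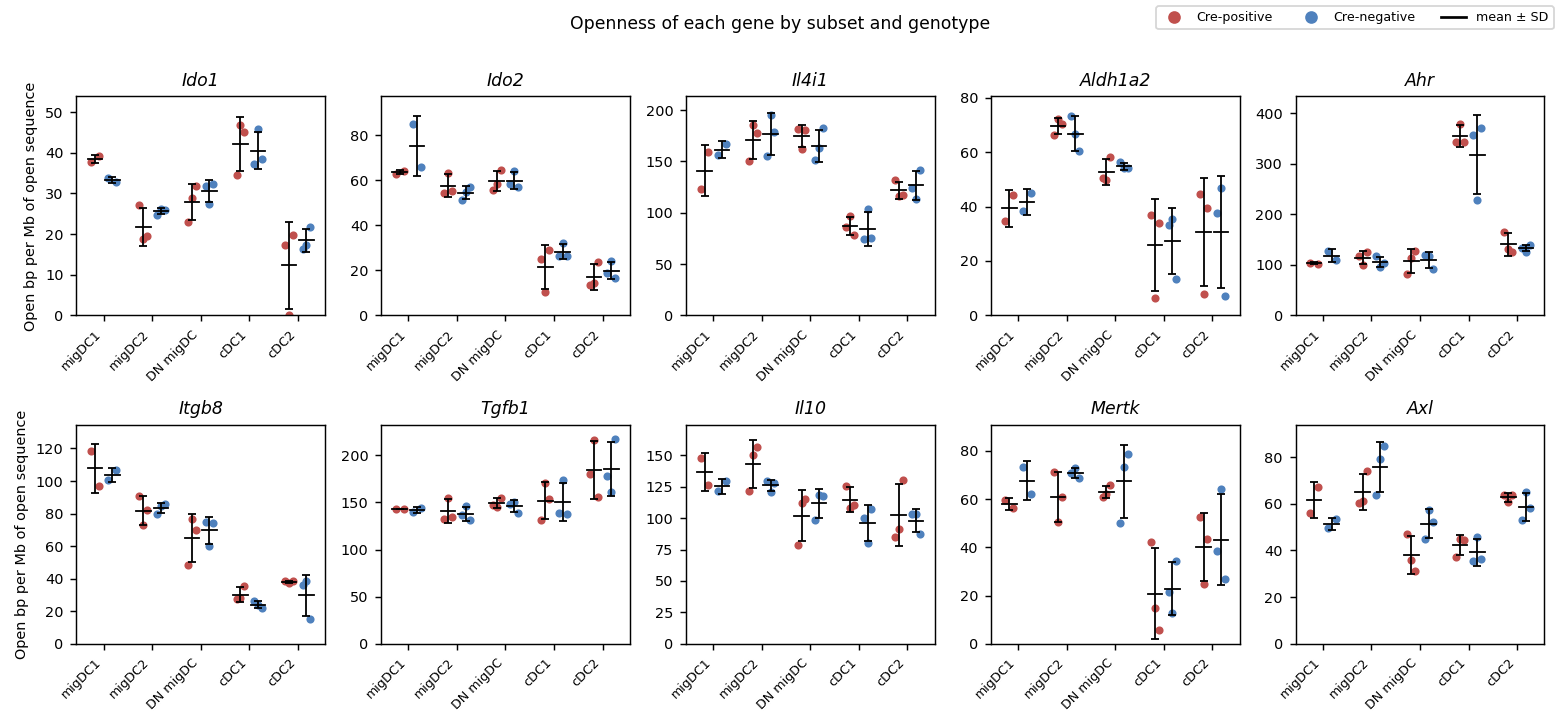
Openness of each gene (vertical axis, open bp per Mb of open sequence) by subset, migratory subsets left of resident ones, with a point per floxed library, Cre-positive left of Cre-negative, and mean ± SD. Ido2 and Itgb8 separate migratory from resident libraries completely (lowest migratory 51.24 and 48.61, highest resident 32.04 and 38.6), and Ahr stands highest in cDC1.

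Ido1 (chromosome 8, 24584133 to 24596952) and Ido2 (chromosome 8, 24531892 to 24576414) are neighbouring genes that behaved differently. Ido1, the interferon-inducible tryptophan-degrading enzyme, was most open in cDC1, with 34.53, 41.75 and 46.93 bp per Mb (lowest, median and highest of 6), and least in cDC2, with 0, 17.29 and 21.73. The migratory subsets lay between, at 32.84, 33.88, 37.8 and 39.13 in migDC1, 23.01, 30.33 and 32.42 in DN migDC, and 18.79, 25.39 and 27.17 in migDC2. Migratory libraries averaged 28.8 ± 5.87 and resident libraries 28.4 ± 15.0 bp per Mb (SD, n = 16 and 12). The fitted difference was 0.43 (SE 0.302, log2 scale) with an adjusted p of 0.224 by limma, so no difference was detected over all subsets. Without cDC2 Cre-positive 2, the library at 0, it was 0.07 (SE 0.08, adjusted p = 0.429).

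The region at the upper end of Ido1 (Ido1-2, chromosome 8, 24596472 to 24597400) was called in 0 of 6 cDC2 libraries, against 6 of 6 cDC1 libraries, by the exact test an adjusted p of 0.0321. It was called in 4 of 4 migDC1, 4 of 6 migDC2 and 6 of 6 DN migDC libraries, and in 14 of 16 migratory against 6 of 12 resident libraries (adjusted p = 0.091, exact test). Where called, the second Ido1 region (Ido1-1, 24595044 to 24596050) ranked 25380 to 30542 in the cDC2 lists by peak signal, against 9782 to 11088 in the cDC1 lists. These rank ranges do not overlap. The RefSeq table gives no strand for Ido1, so the upper end is not named as start or stop.

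Ido2, whose enzyme is the weaker tryptophan dioxygenase of the pair, was open in every library and more so in migratory ones. Its openness was 51.24, 58.48 and 84.69 bp per Mb in 16 migratory libraries (lowest, median and highest), against 10.5, 23.88 and 32.04 in 12 resident libraries. The groups do not overlap, and the difference was 1.52 on the log2 scale (SE 0.116, limma adjusted p = 2.86e-10). Ido2-4 (chromosome 8, 24559195 to 24559740) had calls in 16 of 16 migratory libraries but in 0 of 12 resident ones (adjusted p = 2.07e-06, exact test), and in all 4 germline-set libraries too. Ido2-1 (24546272 to 24546601) was called in 16 of 16 against 5 of 12 (adjusted p = 0.00263), a call that is lost both at equal list length and within plain titles. Ido2-3 (24554049 to 24555388) was present in nearly all libraries, 16 of 16 and 11 of 12, but ranked 2928 to 9079 in migratory lists (median 5076.5), against 27345 to 47467 in resident lists (median 32675). Its peak was 802 to 1472 bp wide in migratory libraries, against 452 to 675 bp in resident libraries, again without overlap.

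Il4i1 (chromosome 7, 44836288 to 44840809) encodes a secreted amino acid oxidase. A single region of 8785 bp (44834946 to 44843730) covers the whole gene and both its ends, and it also holds Il4i1b, so its values cannot be split between both annotations. It was called in all 32 libraries and therefore has no presence test. In migDC2 of the floxed cohort the peak was 7536 to 8860 bp wide (median 7816.5), against 2289, 2545, 3168 and 3871 bp in migDC1 and 2446 to 3971 bp in DN migDC. Resident libraries had 2408 to 2764 bp in cDC1 and 2393 to 3234 bp in cDC2. In the germline set, whose lists are shorter, migDC2 peaks were 3166 and 8545 bp wide in IFNgr1-/- and 7878 and 4159 bp in WT libraries. The 6 floxed migDC2 peaks and 2 of the 4 germline-set peaks thus ran across most of the region, while the other migratory subsets overlap the resident ones in width. Each width is that of the single peak overlapping the region most, so a region split into several peaks shows a smaller width. Summed over peaks, the region held 7536 to 8646 open bp in floxed migDC2 and 6513 to 8077 in DN migDC. The sums were 4358 to 6756 in migDC1 and 3265 to 5542 in resident libraries.

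Over all migratory against all resident libraries the centred log2 width of Il4i1-1 differed by 0.81 (SE 0.076, limma adjusted p = 2.07e-08). Its peak ranked 18 to 1552 in migratory lists (median 104), against 1457 to 2963 in resident lists (median 2106.5), and its percentile in the common set was 7.75 points higher (SE 0.76, adjusted p = 1.04e-08). Openness was 123.5 to 195.7 bp per Mb in migratory libraries, against 74.94 to 141.9 in resident libraries, a log2 difference of 0.67 (SE 0.061, adjusted p = 4.47e-09, limma). The order of the means was 174 ± 17.7 in migDC2, 170 ± 13.2 in DN migDC, 151 ± 19.2 in migDC1, 124 ± 10.9 in cDC2 and 85.9 ± 12 in cDC1 (SD, n = 6 but 4 for migDC1). The neighbours migDC2 and DN migDC differ by less than their SD.

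**Figure D3:**
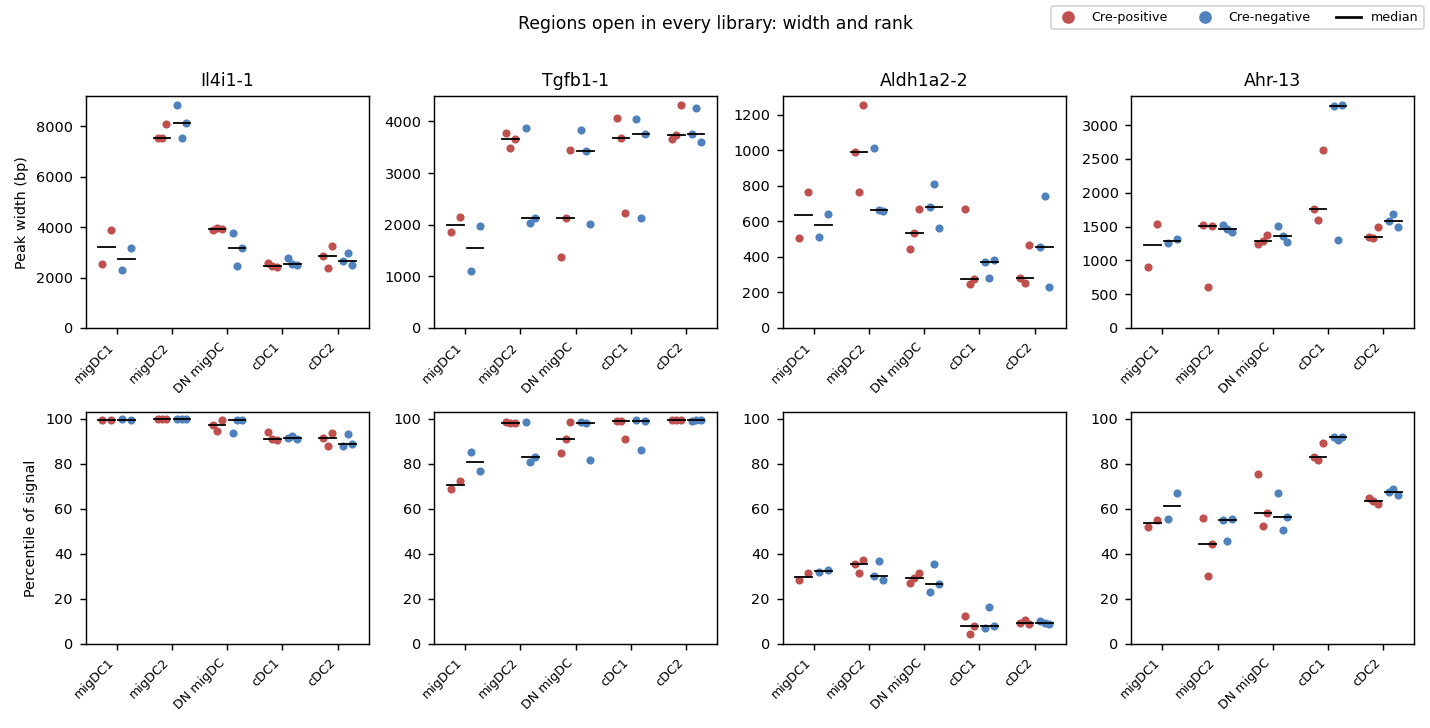
Peak width (bp, upper panels) and percentile of signal among the regions called in all floxed libraries (100 is the strongest, lower panels) of Il4i1-1, Tgfb1-1, Aldh1a2-2 and Ahr-13 in each floxed library by subset, migratory left of resident; bars are medians. Each width is that of the single peak overlapping the region most. The Il4i1-1 peak spans 7536 to 8860 bp in the 6 migDC2 libraries, above those of the other subsets plotted, and the percentile of Ahr-13 is 81.7 to 92 in cDC1 but 30.2 to 75.4 in migratory libraries.

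Aldh1a2 (chromosome 9, 71215789 to 71296243) was most open in migDC2. Its openness was 60.46, 68.43 and 73.31 bp per Mb in migDC2 (lowest, median and highest), 49.77, 54.09 and 58.38 in DN migDC, and 34.65, 38.25, 44.23 and 45.09 in migDC1. It was 7.317, 38.63 and 46.87 in cDC2 and 6.318, 33.55 and 37.07 in cDC1, so that migDC1 overlaps the resident subsets. The mean over migratory subsets was higher by 1.14 on the log2 scale (SE 0.293, limma adjusted p = 0.00201). This call is lost with regions of the gene body alone (adjusted p = 0.124), with genes of every type as candidates (adjusted p = 0.0937) and within plain titles (adjusted p = 0.141).

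Aldh1a2-1 (chromosome 9, 71202020 to 71202677), 13441 bp below the gene's lower end, which is its start, had calls in 16 of 16 migratory libraries but in 0 of 12 resident ones (adjusted p = 2.07e-06, exact test). Aldh1a2-2 (71213123 to 71214157), 2149 bp from the start, was called in every library. It was 447 to 1253 bp wide in migratory libraries, against 228 to 743 bp in resident libraries, a centred log2 difference of 1.02 (SE 0.142, limma adjusted p = 5.39e-06), and its percentile was 21.7 points higher (SE 1.46, adjusted p = 2.35e-11). Aldh1a2-3 (71215218 to 71216684) covers the start site printed above. It was called in 6 of 6 migDC2, 6 of 6 DN migDC, 2 of 4 migDC1, 4 of 6 cDC2 and 4 of 6 cDC1 libraries, with list ranks of 9944 to 16249 in migDC2 and 47538 and 50520 in migDC1.

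Aldh1a2-5 (71320713 to 71321049), 24638 bp above the gene, was called in 6 of 6 migDC2 libraries and in no library of the 4 other floxed subsets. Against cDC2 it passed the exact test (6 of 6 against 0 of 6, adjusted p = 0.0181). DN migDC (0 of 6) and migDC1 (0 of 4) did not pass against migDC2, with adjusted p of 0.324 and 0.0594, although the counts do not overlap. These were the smallest adjusted p over all regions in those 2 exact tests, so complete separation could not pass there. It was called in 0 of the 4 germline-set migDC2 libraries, whose lists are shorter.

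Ahr (chromosome 12, 35497979 to 35534989) encodes the ligand-activated transcription factor of tryptophan metabolites and dietary indoles, and it had the largest fall in openness in migratory libraries among the 10 genes. The cDC1 libraries had openness of 342.6, 379.1 and 342.7 bp per Mb in Cre-positive and 356.3, 227.6 and 370.0 in Cre-negative samples. The cDC2 libraries had 165.6, 130.6 and 125.0 in Cre-positive and 133.0, 126.1 and 138.2 in Cre-negative samples. Values were 101.7 to 127.5 in migDC1, 96.36 to 125.3 in migDC2 and 81.49 to 127.3 in DN migDC. The 3 migratory subsets overlap each other and reach the lowest cDC2 values, while cDC1 stands above all of them, the Cre-negative library at 227.6 included.

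Migratory openness of Ahr was lower by 0.96 on the log2 scale (limma estimate -0.96, SE 0.079, adjusted p = 1.02e-09). The difference between migDC1 and cDC1 exceeded that between migDC2 and cDC2 by -1.28 (SE 0.178, adjusted p = 2.79e-05, limma). All migDC1 libraries carry lettered and all cDC1 libraries plain titles, so subset and title form cannot be told apart between them. Of the 10 genes Ahr alone passed this test of the lineage difference, where 12.7% of all genes passed as lower and 13.5% as higher. For Ido1 the estimate was -1.24 (SE 0.68, limma adjusted p = 0.173) with all libraries. Without cDC2 Cre-positive 2, the library at 0, it was -0.53 (SE 0.17, limma adjusted p = 0.0332), which passes. For Itgb8 (0.63, adjusted p = 0.0538), Tgfb1 (0.32, 0.0617), Il4i1 (0.33, 0.0761) and Mertk (1.02, 0.115) the unadjusted p was under 0.05 but the adjusted p, given second in each bracket, was not.

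Of the 19 Ahr regions, 16 lie outside the gene body, and each is at least 314755 bp from the nearest other gene, Snx13 or Agr3. Ahr-7 (chromosome 12, 35489211 to 35490417) and Ahr-8 (35491306 to 35491834) were called in 0 of 16 migratory libraries, against 6 of 12 resident libraries, all 6 of them cDC1 (adjusted p = 0.0106 each, exact test). Both also passed between cDC2 (0 of 6) and cDC1 (6 of 6), with an adjusted p of 0.0321. Ahr-9 and Ahr-11 were called in 5 of 6 cDC1 libraries and no other (0 of 16 against 5 of 12, adjusted p = 0.0247 each). Ahr-12 (35517208 to 35519512) and Ahr-14 (35538869 to 35539367) were called in 6 cDC1 libraries and 1 cDC2 library, and in 0 of 16 migratory libraries (adjusted p = 0.004 each). Ahr-18 (35573792 to 35574294) was shared by resident lineages, with 5 of 6 cDC1 and 4 of 6 cDC2 libraries, against 0 of 16 migratory libraries (adjusted p = 0.000356).

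Ahr-4 (35479348 to 35481329) differed from these. It was called in 12 of 12 resident libraries and in 9 of 16 migratory ones, namely 6 of 6 migDC2, 3 of 6 DN migDC and 0 of 4 migDC1 libraries (adjusted p = 0.0297, exact test), a call that is lost without any of 19 single libraries. The 8 counts thus rest largely on cDC1. Leaving out cDC1 Cre-negative 1, cDC1 Cre-negative 3, cDC1 Cre-positive 1 or cDC1 Cre-positive 3 left 5 of them, and at equal list length 3 of 28 tested member regions were called less often, against 32.5% of all regions tested there. The regions called more often then numbered 10 of 28, against 27.4% of all regions tested there. Within plain titles, where the resident libraries are set against 4 of migDC2 and DN migDC, 0 Ahr regions passed.

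Ahr had 4 regions called in all 32 libraries. Among them Ahr-13 (35532143 to 35535574), which covers the upper end of the gene, was 602 to 1533 bp wide in migratory and 1299 to 3289 bp in resident libraries (centred log2 difference -0.38, SE 0.117, limma adjusted p = 0.0118). Its percentile of signal was 30.2 to 75.4 in migratory and 62.3 to 92 in resident libraries, a difference of -21.78 points (SE 2.68, adjusted p = 3.22e-07). Ahr-15 (35552856 to 35554016) went the other way in rank, 7.35 points higher in migratory libraries (SE 2.08, adjusted p = 0.00379). Within plain titles the width call of Ahr-13 (-0.339, limma adjusted p = 0.166) and the rank call of Ahr-15 (6.05 points, adjusted p = 0.195) are lost. Ahr-1 and Ahr-19 did not pass in width or rank. The gene most alike to Ahr in openness over the 28 libraries was Cog2 (Pearson r = 0.959 among 14717 genes), followed by Mpeg1 (0.956) and Slfn4 (0.952).

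**Figure D4:**
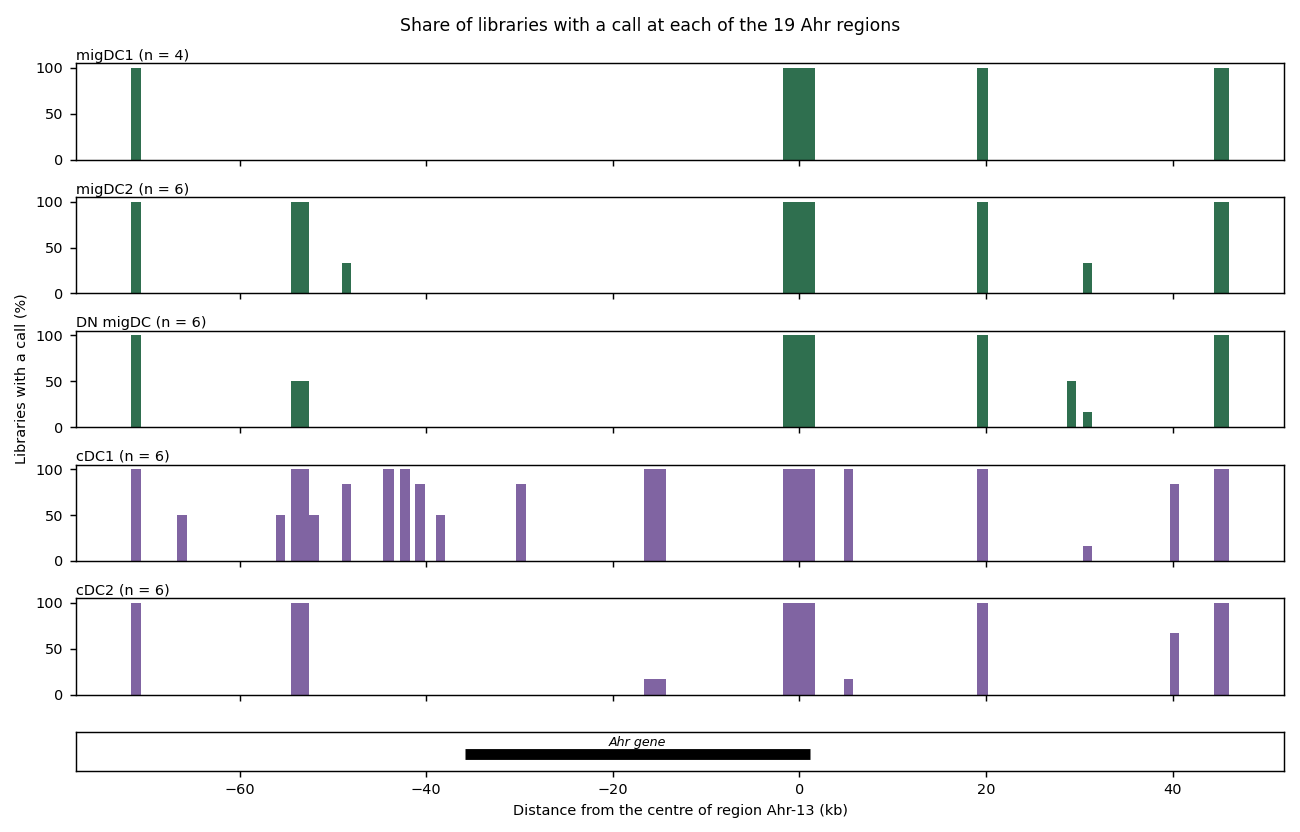
Map of the 19 Ahr regions by distance from the centre of Ahr-13 (kb, horizontal); each panel is a subset, migratory (green) above resident (purple), and bar height is the percent of its libraries with a call, with narrow regions widened to stay visible and the gene body below. Ahr-7, Ahr-8, Ahr-12 and Ahr-14 were called in 6 of 6 cDC1 libraries and in 0 of 16 migratory libraries.

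Itgb8 (chromosome 12, 119162803 to 119238276), the beta-8 integrin chain, was more open in each migratory library than in any resident library. In migDC1 its openness was 97.17, 100.7, 106.9 and 118.4 bp per Mb, in migDC2 72.76, 83.22 and 90.55 and in DN migDC 48.61, 72.05 and 76.96 (lowest, median and highest). It was 15.5, 37.94 and 38.6 in cDC2 and 21.99, 26.73 and 35.32 in cDC1. All 16 migratory values lie above all 12 resident values, with a log2 difference of 1.46 (SE 0.105, limma adjusted p = 9.65e-11). The migDC1 values lie above all those of the other migratory subsets.

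Itgb8-3 (chromosome 12, 119146485 to 119147029) and Itgb8-4 (119147561 to 119148367), 16046 and 14839 bp below the gene, were called in 16 and 15 of 16 migratory libraries but in 0 of 12 resident ones (adjusted p = 2.07e-06 and 1.08e-05, exact test). Itgb8-7 inside the gene body (119230575 to 119230948) was called in 13 of 16 against 0 of 12 (adjusted p = 0.000194). Itgb8-11 (119278392 to 119278822), 40331 bp above the gene, was called in 8 of 16 against 0 of 12 (adjusted p = 0.0247). The region at the start of the gene, Itgb8-9 (119237794 to 119239003), was called in 16 of 16 and 11 of 12 libraries and was not tested, but ranked 8615 to 25360 in migratory lists (median 12821), against 23176 to 58742 in resident lists (median 33330). Its widths were 800 to 1348 bp in migratory and 354 to 821 bp in resident libraries. Itgb8-1 (119113592 to 119114171) was called in all libraries and was wider by 0.20 (centred log2, SE 0.064, limma adjusted p = 0.0145) and 9.28 percentile points higher (SE 2.24, adjusted p = 0.00103) in migratory libraries. Its width call is lost without centring (0.101, limma adjusted p = 0.464) and within plain titles (0.0922, adjusted p = 0.649). Its rank call is also lost within plain titles (4.25 points, limma adjusted p = 0.128).

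Tgfb1 (chromosome 7, 25687002 to 25705077), the cytokine that the integrin releases, had 2 wide regions called in all 32 libraries and no presence test. Openness was 139.9 to 144.1 bp per Mb in migDC1, 131.1 to 155.2 in migDC2 and 138.8 to 154.9 in DN migDC, against 131.5 to 173.4 in cDC1 and 156.2 to 217.0 in cDC2. All cDC2 values lie above all migratory values of the floxed cohort, while cDC1 overlaps them. Germline-set migDC2 libraries, whose lists are shorter, had 180.7 to 246.7. Summed over peaks, the regions held 6763 to 7376 open bp in cDC2 and 3910 to 6906 in floxed migratory libraries, with overlap. Migratory openness fell by 0.21 on the log2 scale (estimate -0.21, SE 0.056, limma adjusted p = 0.00237), which does not pass within plain titles (adjusted p = 0.137). Tgfb1-1 (25686236 to 25690383) covers the start of the gene and also overlaps B9d2. Its peak ranked 152 to 206 in cDC2 and 163 to 3378 in cDC1 lists, and 303 to 4477 in DN migDC, 342 to 4747 in migDC2 and 3707 to 8132 in migDC1 lists. In migratory libraries its percentile was lower (estimate -10.59 points, SE 2.18, adjusted p = 0.000219, limma) and its centred log2 width was lower (estimate -0.47, SE 0.114, adjusted p = 0.00224). Within plain titles both calls are lost (-2.4 points, limma adjusted p = 0.399, and -0.275, adjusted p = 0.169). Tgfb1-2 (25705410 to 25708637), 1946 bp past the gene and nearly as close to Ccdc97, had a lower percentile (estimate -7.81 points, SE 2.81, adjusted p = 0.0187) with no width call.

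Il10 (chromosome 1, 131019845 to 131024970) had 10 regions, 8 of them outside the gene. Openness was 121.3 to 147.7 bp per Mb in migDC1, 121.1 to 156.9 in migDC2 and 78.64 to 118.8 in DN migDC, against 79.99 to 125.9 in cDC1 and 85.34 to 130.5 in cDC2. The ranges overlap. Only the migDC1 and migDC2 medians (127.9 and 128.8) stand above the highest cDC1 value (125.9), and both lie below the highest cDC2 value (130.5). The difference of 0.27 (log2, SE 0.073, limma adjusted p = 0.00306) turns to -0.10 with regions of the gene body alone and does not pass within plain titles. Il10-9 (131033706 to 131034227), 8996 bp above the gene, had calls in 16 of 16 migratory libraries but in 0 of 12 resident ones (adjusted p = 2.07e-06, exact test). Il10-5 (131018347 to 131019984), which covers the gene's lower end, was called in 15 of 16 against 4 of 12 (adjusted p = 0.0063) and Il10-1 (130987498 to 130987822) in 14 of 16 against 3 of 12 (adjusted p = 0.00788), and both calls are lost within plain titles. Il10-2 (130989406 to 130989697) was called in 4 of 4 migDC1 and 0 of 6 cDC1 libraries (adjusted p = 0.0283, exact test).

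Regions of Il10 that were always open moved in both directions. Il10-8 (131025624 to 131026550) was narrower (centred log2 -0.48, SE 0.084, limma adjusted p = 8.36e-05) and had a lower percentile (estimate -15.75 points, SE 1.84, adjusted p = 1.55e-07) in migratory libraries, with the cDC2 percentiles of 38.3 to 46.9 above all others. Il10-10 (131037911 to 131038821) was 10.55 points higher (SE 2.44, adjusted p = 0.000671), a value that turns to -2.03 within plain titles. Il10-6 (131020567 to 131022009) was lower (estimate -10.02 points, SE 4.18, adjusted p = 0.0393), a call lost without any of 14 single libraries. That call is also lost within plain titles (-3.72 points, limma adjusted p = 0.618). Over the 15 regions called in all 28 floxed libraries, width was higher for 3 (20.2% of all 23390 such regions) and lower for 4 (18.6%), and rank was higher for 5 (29.7%) and lower for 5 (37.2%).

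Mertk (chromosome 2, 128698915 to 128803162), a receptor for apoptotic-cell bridging proteins, had 4 regions in its gene body that were called more often in migratory libraries. Openness was 56.17, 59.76, 62.01 and 73.27 bp per Mb in migDC1, 50.31, 69.93 and 73.03 in migDC2 and 50.07, 63.92 and 78.5 in DN migDC (lowest, median and highest). It was 24.93, 40.93 and 64.09 in cDC2 and 5.598, 18.14 and 42.08 in cDC1. All cDC1 values lie below all migratory values of the floxed cohort, and cDC2 overlaps them. The log2 difference was 1.22 (SE 0.212, limma adjusted p = 4.09e-05), which does not pass within plain titles (adjusted p = 0.0732). Mertk-9 (128796492 to 128796886) had calls in 16 of 16 migratory libraries but in 0 of 12 resident ones (adjusted p = 2.07e-06, exact test). Mertk-4 (128715948 to 128716333) and Mertk-5 (128740955 to 128741401) were called in 15 of 16 against 0 of 12 each (adjusted p = 1.08e-05), and Mertk-6 (128745697 to 128746346) in 16 of 16 against 4 of 12 (adjusted p = 0.00135). In the germline set, whose lists are shorter, Mertk-4 and Mertk-5 were called in 0 of 4 libraries and Mertk-6 and Mertk-9 in 1 of 4. The first 3 calls are lost at equal list length and that of Mertk-6 within plain titles. Mertk-7 (128770799 to 128771614), also in the gene body, was called in 13 of 16 against 10 of 12 and did not pass. It ranked 19062 to 26197 in cDC2 lists, which tend to be shorter, against 34243 to 56714 in migratory lists. In the 4 cDC1 lists that held it, it ranked 38798 to 50294. Its median width was 775 bp in cDC2 and 436 bp in migratory libraries. Mertk-1 (128697961 to 128699572), at the start site printed above, was called in every library but was weak, at percentiles of 0 to 24.4 in migratory and 0.1 to 14.9 in resident libraries.

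Axl (chromosome 7, 25756500 to 25788924), the second TAM kinase here, showed the smallest difference that passed. Openness was 60.28 to 84.53 bp per Mb in migDC2, 49.44 to 67.03 in migDC1 and 31.22 to 57.47 in DN migDC, against 52.99 to 64.96 in cDC2 and 35.63 to 45.84 in cDC1. The log2 difference of 0.16 (SE 0.068, limma adjusted p = 0.0416) turns to -0.02 at equal list length and loses its call without any of 15 single libraries. Axl-2 (25766153 to 25766719) had calls in 11 of 16 migratory libraries but in 0 of 12 resident ones (adjusted p = 0.00184, exact test), a call lost at equal list length. Axl-3 (25768127 to 25768696) was called in 8 of 16 against 0 of 12 (adjusted p = 0.0247, exact test). Its calls ranked 31710 to 59989, and most lay beyond the 38455 peaks kept at equal list length. Too few calls of Axl-3 then remained for a test. Axl-6 (25786894 to 25787466) was called in 7 of 16 against 0 of 12 (adjusted p = 0.0297, exact test). The call of Axl-6 is lost at equal list length and also without any of 19 single libraries. Axl-4 (25776378 to 25777720) was open in all libraries and narrower in migratory ones (centred log2 -0.46, SE 0.105, limma adjusted p = 0.00145). Within plain titles this width call is lost (-0.00939, limma adjusted p = 0.976). The annotated start of Axl lay under no peak in any library.

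MERTK and AXL are also expressed by macrophages, so macrophage marker regions are given beside them. The 10 markers, all with a region, summed to 425.1 to 655.8 bp per Mb in migratory libraries (median 617.4), against 425.7 to 547.6 in resident libraries (median 509.6), and of their 49 tested regions 16 had more calls and 3 fewer calls in migratory libraries, against 25% and 15.1% of all tested regions. In migDC1 the sum was 425.1 to 457.7, against 425.7 to 508.2 in cDC1, while Mertk openness was 56.17 to 73.27 in migDC1, against 5.598 to 42.08 in cDC1. In migDC2 the sum was 606 to 646.8 and in DN migDC 609.3 to 655.8, against 511.1 to 547.6 in cDC2, without overlap. Mertk openness was 50.31 to 73.03 in migDC2 and 50.07 to 78.5 in DN migDC, against 24.93 to 64.09 in cDC2, with overlap. Sums of B cell markers were 93.91 to 340 in migratory and 32.26 to 203.4 in resident libraries, of T cell markers 251.6 to 344.5 and 158.1 to 279.9, of NK and ILC markers 240 to 330.9 and 220.3 to 297.4, and of plasmacytoid DC markers 823.2 to 1063 and 549.8 to 790.8. Stromal and epithelial markers gave 285.8 to 375.3 and 292 to 388, with no region for Krt5, Krt14 or Col1a2. Nkg7 was at 0 in all migratory and Cd3g in all resident libraries. The part of other cells in the results on the 10 genes was not tested.

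Between migDC1 and cDC1, 12 of 36 tested regions were called more often (18.5% of all tested regions) and 5 less often (16.8%), each of them in 4 of 4 migDC1 and 0 of 6 cDC1 libraries or the reverse (adjusted p = 0.0283, exact test). The 12 were Ido2-4, Aldh1a2-1, Itgb8-3, Itgb8-4, Itgb8-11, Mertk-4, Mertk-5, Mertk-6, Mertk-9, Axl-6, Il10-2 and Il10-9, and the 5 were Ahr-4, Ahr-7, Ahr-8, Ahr-12 and Ahr-14. Without any 1 of the 4 migDC1 libraries, with fewer libraries in the test, 0 passed. All migDC1 libraries carry lettered and all cDC1 libraries plain titles, so this comparison cannot tell subset from title form. At equal list length 6 of 21 tested regions were called more often (28.9% of all regions tested there) and 3 less often (18.9%).

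Between migDC2 and cDC2, 13 of 27 tested regions were called more often (37.2% of all tested regions) and 0 less often (4.02%). They were Ido2-1, Ido2-4, Aldh1a2-1, Aldh1a2-5, Itgb8-3, Itgb8-4, Itgb8-7, Mertk-4, Mertk-5, Mertk-9, Axl-2, Il10-1 and Il10-9, at adjusted p of 0.0181 or 0.0485 (exact test). Between cDC2 and cDC1, 0 of 25 tested regions were called more often (2.16% of all tested regions) and 3 less often (13.4%), namely Ido1-2, Ahr-7 and Ahr-8. Without cDC1 Cre-negative 2 this count was 10 and without cDC1 Cre-positive 2 it was 11. Comparisons that share a subset share its libraries.

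Between migDC1 and migDC2, 0 of 16 tested regions passed, as did 0% of all 20987, and 5 had an unadjusted p under 0.05 by the exact test. The smallest p this test can give here, at complete separation, is 0.01. It adjusted to 0.0594, so no region could pass and the 0 does not show that these subsets are alike. Aldh1a2-5, Axl-1 and Ahr-4 were called in 0 of 4 migDC1 and 6 of 6 migDC2 libraries (adjusted p = 0.0594 each), Mertk-7 in 1 of 4 and 6 of 6, and Itgb8-10 in 3 of 4 and 0 of 6 (adjusted p = 0.131 each). Between DN migDC and migDC2, 0 of 14 tested regions passed, as did 0% of all 22285, and Aldh1a2-5 was the 1 region with an unadjusted p under 0.05. Here too complete separation could not pass, since its exact p of 0.005 adjusted to 0.324.

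Between Cre-positive and Cre-negative libraries no difference was detected at these genes, nor did the peaks at Ifngr1 show the deletion itself. Of the 50 tested regions 0 were called more or less often in Cre-positive than in Cre-negative libraries (0% of all tested regions), 0 had an unadjusted p under 0.05, and the smallest p was 0.2 (exact test stratified by subset). Openness differed for 0 of the 10 genes, against 0.0798% of all genes (limma), with 0 at an unadjusted p under 0.05. The estimate for Ido1 was -0.31 (SE 0.301, log2 scale, adjusted p = 1), and -0.02 (SE 0.08, adjusted p = 1) without cDC2 Cre-positive 2, the library at 0. That for Mertk was -0.21 (SE 0.211, adjusted p = 1). For Ido1, an interferon-gamma target in many cells, cDC1 libraries had 34.53, 46.93 and 45.07 bp per Mb in Cre-positive and 37.3, 45.84 and 38.44 in Cre-negative samples. The migDC1 libraries had 37.8 and 39.13 in Cre-positive and 33.88 and 32.84 in Cre-negative samples, and migDC2 had 27.17, 18.79 and 19.43 against 24.77, 26.26 and 26.02. In cDC2 the values were 17.3, 0 and 19.7 in Cre-positive and 16.32, 17.28 and 21.73 in Cre-negative samples. DN migDC had 23.01, 28.94 and 31.73 in Cre-positive and 31.72, 27.48 and 32.42 in Cre-negative samples. The genotypes overlap in every subset except migDC1, where the 2 Cre-positive values are the higher ones. With 3 against 3 libraries an exact test in a single subset cannot go below p = 0.1, and with 2 against 2 not below 0.333.

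A difference in the genotype effect between migratory and resident subsets was detected for 0 of the 10 genes (0.0123% of all genes passed, limma). Its smallest unadjusted p was 0.0632, for Itgb8, with an estimate of -0.41 (SE 0.209, adjusted p = 0.999). Among the 15 always-open regions 0 passed for width (0.00855% of all such regions) and 0 for rank (0.0727%). The unadjusted p was under 0.05 for the width of Ahr-13 (estimate -0.28, SE 0.116, limma adjusted p = 0.989) and for the rank of Ahr-15 (4.32 points, SE 2.07, adjusted p = 0.971).

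**Figure D5:**
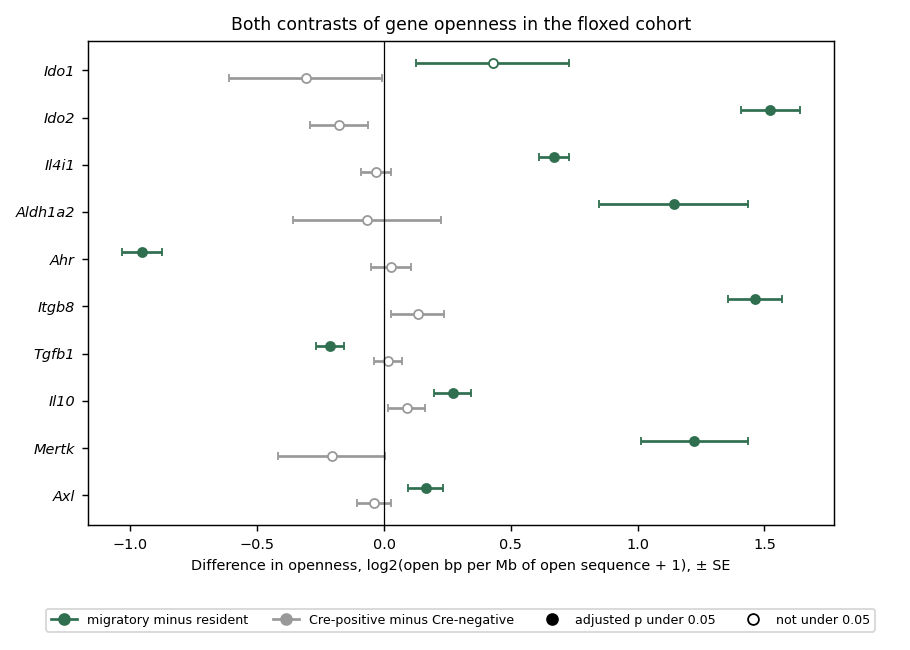
Differences in openness (log2 scale, ± SE) for the 10 genes, migratory minus resident and Cre-positive minus Cre-negative, in the floxed cohort; filled points have an adjusted p under 0.05. Migratory minus resident differences run from -0.96 (Ahr) to 1.52 (Ido2), and none of the Cre differences is filled.

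In the germline set, 0 of the 10 genes differed between IFNgr1-/- and WT migDC2, as did 0% of all 13679 genes tested (limma), with 0 of the 10 and 393 of all at an unadjusted p under 0.05. Mertk had the largest shift, with 13.56 and 54.07 bp per Mb in IFNgr1-/- and 7.669 and 13.13 in WT libraries (1.36, SE 0.636, adjusted p = 1). Both IFNgr1-/- values lie above both WT values, but 13.56 only just. The library at 54.07 has the longest peak list of the germline set (42446 peaks). Il4i1 was at 237.1 and 271.7 in IFNgr1-/- and 242.7 and 262.6 in WT libraries, and Ido2 at 66.06 and 89.76 in IFNgr1-/- and 64.5 and 66.72 in WT libraries.

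The partners of these genes were counted from pathway lists by the same exact test, migratory against resident, and each count stands beside 25% of all tested regions called more often and 15.1% less often. Of 28 tested regions of kynurenine pathway genes 3 were called more often and 0 less often, 2 of them at Kynu (kynureninase) and 1 at Slc7a5, an amino acid transporter. Of 70 regions of retinoic acid genes 18 were called more and 5 less often, led by Rarb, a retinoic acid receptor (7 more and 2 less of 20), the retinol transporter gene Stra6 (6 of 7 more) and the sister enzyme Aldh1a3 (3 of 6 more). The 108 regions of TGF-beta activation and signalling had 40 more and 17 less, with Itgav, the alpha-v partner of beta-8, at 7 more and 1 less of 10, the latent TGF-beta binding protein gene Ltbp1 at 6 and 1 of 14, and the receptor gene Tgfbr2 at 4 and 3 of 13. For TAM ligands and apoptotic cell uptake 12 of 53 were more and 5 less, with the bridging protein gene Mfge8 at 6 of 7 more, Lrp1 at 3 of 10 more and Havcr2 (TIM-3) at 4 of 6 less. Of 22 regions of aryl hydrocarbon receptor partners and targets 8 were more and 4 less, among them 4 of 4 more at Ahrr, the receptor's repressor, 2 of 4 less at Arnt, its dimer partner, and 1 more and 1 less of 4 at the chaperone gene Hsp90aa1. Of 67 regions of the IL-10 receptor and regulators 15 were more and 10 less, with Il10ra at 1 more and 4 less of 11 and Prdm1 at 3 more and 2 less of 16. Between Cre-positive and Cre-negative libraries 0 regions of any of these lists passed.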

How the data were processed

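Omni-ATAC-seq was done on 32 libraries of sorted mouse DC. Per the submitters' processing notes, the authors used Bowtie2, Genrich and deepTools with mm10. No version or setting is given in the sources used here. Each library has 1 deposited peak list, which gives each peak's position and, in the seventh column, the authors' signal. The construction of this signal is not stated, and its lowest value lies just above 200 in each list. The deposited −log10 p at the summit was used only to order peaks of equal signal. Width and signal come from the same peak, the one overlapping the region most.

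From these lists, regions were built from positions under peaks in at least 3 of 32 libraries, at least 100 bp long, and counted as called in a library where the overlap with one of its peaks made up 50% or more of either. They were assigned to protein-coding RefSeq genes as described above. Only regions with 3 or more libraries on each side, called and not called, entered the exact conditional test (two-sided, Benjamini-Hochberg over every region tested, threshold 0.05). Openness (pseudocount 1 bp per Mb of open sequence), width (log2, centred on the median of the 23390 regions called in all 28 floxed libraries) and signal rank (percentile among those regions, 100 strongest) were fitted with limma 3.58.1 in R 4.3.3 on 10 groups of subset and genotype. The germline set was fitted alone. Python 3.11.15, numpy 2.4.6, pandas 2.3.3 and scipy 1.17.1 did the rest, and the scripts were tested on simulated data.

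Samples were grouped by the labels' cell type and genotype. Alternatives were equal list length (the strongest peaks of each list, as many as the shortest list has), plain titles, 1 bp overlap, consensus from 5 libraries, no filter on calls, gene bodies only, genes of every type, pseudocount 10, a mean openness of at least 5 bp per Mb, uncentred width, log2 signal and leaving out each library. The text gives in full the regions that passed (up to 4 a gene in the migratory comparison), those at gene ends and up to 3 pathway genes a list by number of regions passing. Members and lists were chosen with earlier results of these data known. Exons, introns and peak sequences were not analysed here, and 1 of the promoter motifs searched is not reported here.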

Additional observations from a re-analysis of the deposited data

Results flagged for a closer look

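The openness of Ahr differed between the lineages in its relation to migration, by a test of that difference itself. The difference of migDC1 from cDC1 minus that of migDC2 from cDC2 was -1.275 on the log2 scale (SE 0.178, limma adjusted p = 2.79e-05). Mean openness was 110.7 ± 11.6 bp per Mb of open sequence in migDC1 (SD, n = 4), against 336.4 ± 55.3 in cDC1 (n = 6), and 110.1 ± 11.7 in migDC2, against 136.4 ± 15.1 in cDC2 (n = 6 each). Every migDC1 value lay below every cDC1 value, and the highest migDC2 value (125.3) lay just above the lowest cDC2 value (125.0). Title form was lettered in all migDC1 and plain in all cDC1 libraries, so it cannot be told apart from subset there. The lineage difference was not tested within plain titles.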

How the results depend on the processing

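Equal list length, and plain titles, which leave 4 migratory libraries, changed several counts; the causes were not tested beyond the fewer peaks or libraries each leaves. At equal list length the regions passing in migratory against resident libraries numbered 13 in place of 25 (10 more often, 3 less often), those in migDC1 against cDC1 9 in place of 17 (6 and 3), those in cDC2 against cDC1 5 in place of 3, those in migDC1 against migDC2 1 in place of 0, and the genes passing the lineage difference 3 in place of 1. Within plain titles 10 regions passed (10 more often, 0 less often), openness of 4 genes in place of 9, width of 3 regions in place of 7 and rank of 5 in place of 10. Of the 25 regions passing in migratory against resident libraries, 7 could not be tested at equal list length and 4 within plain titles. These were called in, or missing from, too few libraries there. The lineage difference passed for 2 genes with gene body regions and for 2 with pseudocount 10.

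With single libraries left out, counts ran from 21 to 25 regions for migratory against resident (16 to 17 more often, 5 to 8 less often), 0 to 20 for migDC1 against cDC1 (0 to 13 and 0 to 8), 13 to 16 for migDC2 against cDC2, 3 to 11 for cDC2 against cDC1, 1 to 3 genes for the lineage difference, 8 to 9 genes for openness, 7 to 8 regions for width, 9 to 12 for rank, and 0 to 1 for rank by Cre.

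Directions turned for Il10 openness with gene body regions (-0.104), Axl openness at equal list length (-0.0197), the lineage difference of Itgb8 with gene body regions (-0.415) and of Ido2 at equal list length (0.649), and, within plain titles, the ranks of Il10-10 (-2.03), Axl-4 (2.23), Ahr-1 (-7.35) and Ahr-19 (-3.39). With single libraries left out, values that did not pass turned for the Ido2 lineage difference (-0.288 to 0.0568), Il10-10 width (-0.0431 to 0.0245) and the ranks of Axl-4 (-1.78 to 0.384), Ahr-1 (-0.873 to 3.61) and Ahr-19 (-0.621 to 3.83). Among the other pairs of a single value and an alternative, leaving out a library aside, 36 lost and 5 gained a call. The same value can occur in several of these pairs. No paired analysis was possible because the replicate numbers were given in accession order and pair no libraries. Depth was not known, so weak regions cannot be told from closed ones.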

Other observations

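The genes whose openness over the 28 floxed libraries was most like that of each member, by Pearson r on the log2 scale among 14717 genes with a mean of at least 5 bp per Mb of open sequence, are given as a description; the libraries share subsets, so the r values mostly follow subset differences. Ido1 was most like Pdzk1ip1 (r = 0.965), Zp2 (0.943) and Pnpla3 (0.927). Ido2 was most like Pax7 (0.974), Npas4 (0.969) and Ccdc33 (0.963). Il4i1 shares its region with Il4i1b (0.974) and was otherwise most like Plxnd1 (0.942) and Htra1 (0.937). Aldh1a2 was most like Ms4a6d (0.927), Insrr (0.897) and D630023F18Rik (0.894), and Itgb8 like Acbd6 (0.936), Anxa2 (0.936) and Ssh1 (0.934). Tgfb1 was most like Rell2 (0.948), Fbxl15 (0.937) and C030006K11Rik (0.935). Mertk was most like Sfmbt2 (0.914), Oaf (0.894) and Arnt2 (0.894), Axl like Trim47 (0.800), 4930402H24Rik (0.751) and Ninj1 (0.734), and Il10 like Hmbox1 (0.861), Dock10 (0.799) and Mdfic (0.778).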
